A study of Homo sapiens with 18 samples.

Results

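The 9p21 genes *CDKN2A*, *CDKN2B* and *MTAP* and the genes of the CDK4-RB axis, namely *CDK4*, *CDK6*, *CCND1*, *CCND2*, *CCND3*, *RB1* and *E2F3*, were described in 3 bladder cancer cell lines. The 10 genes were chosen by name, and all 10 were found among the 16575 genes of the CAGE-seq table. Of these, 9 had 5 CPM (read counts scaled to library size) or more somewhere in the 18 libraries and were among the 13022 genes tested, while *CCND2* did not. CAGE-seq (cap analysis of gene expression) sequences the capped 5′ ends of RNA, and as each RNA gives 1 tag, the CPM of different genes can be set side by side without a correction for length.

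The study asked how the WWOX tumor suppressor acts on pathways driven by the AP-2α and AP-2γ transcription factors. RT-112, HT-1376 and CAL-29 cells were transduced stably with lentiviruses in 6 variants with 1 library of each per line. In the first transduction the cells received WWOX (W) or its blank control (K), and in the second AP-2α (A), AP-2γ (C) or the corresponding control (K). KK therefore denotes both blank controls, KA control with AP-2α, KC control with AP-2γ, WK WWOX with control, WA WWOX with AP-2α, and WC WWOX with AP-2γ. All 18 variants, the controls included, were selected with puromycin and then G418, the transgenes are driven by the CMV promoter, and the variants of a line are selected populations of the same parental cells. The test between variants had n = 3 (the cell lines), and a line was represented by its transduced variants, so p-values between lines measure the spread among derivatives of 1 culture and say nothing of other tumors.

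The library labelled CAL-29 KC stood apart over all genes. Over genes past the filter its log2 values had a median correlation of 0.94 with HT-1376 libraries, 0.741 with the other CAL-29 libraries and 0.733 with RT-112. It is shown separately here, CAL-29 is described over 5 libraries, and comparisons that rest on it are given with and without it. Libraries held 13357102 to 17958572 reads on genes, 1 read was worth 0.0526 to 0.0709 CPM, and a gene at 0 may lie as high as 3 reads (0.158 to 0.213 CPM), for counting error only. The urothelial and epithelial markers were read in every line (at least 5 CPM in all libraries for 12 of 14 in RT-112, 12 in CAL-29 and 9 in HT-1376), though *UPK3A* had at most 3 reads per library in RT-112 and HT-1376, and *KRT20* in HT-1376. Of 9 markers of leukocytes, endothelium and fibroblasts, *PTPRC*, *CD3E*, *PECAM1* and *DCN* had no row, and the other 5 summed to 9.34 to 70.55 CPM. The CPM of *WWOX* was not higher in W than in K libraries of RT-112 (18.45 to 22.33 against 23.52 to 26.04). Nor was it in HT-1376 (18.58 to 23.06 against 16.95 to 24.74), whereas in CAL-29 it was 62.36 to 154.92 against 51.31 and 63.68. CAGE reads 5′ ends, and whether RNA started at the CMV promoter of a transgene was counted under its gene was not tested. These values may therefore miss *WWOX* RNA of the transgene. The paper describes blots of WWOX and the AP-2 factors as its check of transduction, so these RNA values do not speak for the protein. *TFAP2A*, the AP-2α gene, was higher in KA than in KK of each line (46.77 against 18.01 CPM in RT-112, 100.66 against 68.99 in HT-1376, 49.88 against 35.43 in CAL-29), and *TFAP2C*, the AP-2γ gene, was higher in KC than in KK of RT-112 (263.7 against 57.95 CPM) and HT-1376 (213.93 against 158.24 CPM). With WWOX, *TFAP2A* in WA against WK was 25.32 against 20.31 CPM in RT-112, 69.91 against 76.9 in HT-1376 and 86.67 against 61.66 in CAL-29, and *TFAP2C* was higher in WC than in WK of each line (142.75 against 56.2, 162.76 against 68.99 and 338.56 against 93.09 CPM). In RT-112 *TFAP2C* reached 179.87 CPM in the library labelled WA, more than in WC, and in HT-1376 *TFAP2A* was not higher in the library labelled WA, so WA is named by its label throughout.

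*CDKN2A* encodes from separate first exons the INK4A protein, which inhibits CDK4 and CDK6, and ARF, which protects p53 from MDM2. *CDKN2B* encodes a related CDK4/6 inhibitor, and *MTAP* beside it an enzyme that salvages methionine and adenine. CDK4 and CDK6 bound to a D-type cyclin phosphorylate the retinoblastoma protein RB1, which then releases E2F factors such as E2F3 and allows entry into S phase. Deletion of the 9p21 region, gain of the 6p22 region with *E2F3*, gain of the 11q13 region with *CCND1*, and loss of RB1 are all known from bladder cancer. CAGE measures RNA and not DNA copies, and in bulk cultures fewer cells with a gene cannot be told apart from less RNA per cell.

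The reference sequences before the starts of the 4 genes that were highest in HT-1376 without overlap are shown, since CAGE counts RNA from these starts and AP-2 factors were introduced. Each line gives the 250 bases upstream of a RefSeq start (build GRCh38.p14), 5′ to 3′ on the strand of the gene. Capitals mark matches on either strand to the GC box GGGCGG and to the E2F motif, written as TTTCCCGC, TTTCGCGC, TTTGCCGC or TTTGGCGC.
CDKN2A, ARF start (chr9:21995325-21995574, minus strand): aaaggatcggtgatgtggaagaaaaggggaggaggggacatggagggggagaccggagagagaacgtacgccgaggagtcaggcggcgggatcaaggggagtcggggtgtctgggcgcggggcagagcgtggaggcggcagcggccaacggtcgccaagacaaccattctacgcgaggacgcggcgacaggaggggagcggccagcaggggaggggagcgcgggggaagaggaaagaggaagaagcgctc
CDKN2A, INK4A start (chr9:21974858-21975107, minus strand): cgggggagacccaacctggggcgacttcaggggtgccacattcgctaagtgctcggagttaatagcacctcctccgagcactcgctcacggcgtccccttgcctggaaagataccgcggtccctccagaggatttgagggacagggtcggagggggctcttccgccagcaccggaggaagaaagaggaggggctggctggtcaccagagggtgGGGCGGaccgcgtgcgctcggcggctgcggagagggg
CDKN2B (chr9:22009306-22009555, minus strand): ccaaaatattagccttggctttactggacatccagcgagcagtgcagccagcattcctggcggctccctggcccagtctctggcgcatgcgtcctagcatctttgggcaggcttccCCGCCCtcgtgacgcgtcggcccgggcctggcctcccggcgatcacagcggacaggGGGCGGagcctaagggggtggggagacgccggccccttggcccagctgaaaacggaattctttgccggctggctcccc
MTAP (chr9:21802386-21802635, plus strand): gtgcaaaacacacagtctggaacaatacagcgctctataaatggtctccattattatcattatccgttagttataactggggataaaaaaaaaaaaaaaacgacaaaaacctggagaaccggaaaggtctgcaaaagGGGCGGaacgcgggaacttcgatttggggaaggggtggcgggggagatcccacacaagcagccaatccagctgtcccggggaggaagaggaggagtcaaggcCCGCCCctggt
E2F3 (chr6:20401629-20401878, plus strand): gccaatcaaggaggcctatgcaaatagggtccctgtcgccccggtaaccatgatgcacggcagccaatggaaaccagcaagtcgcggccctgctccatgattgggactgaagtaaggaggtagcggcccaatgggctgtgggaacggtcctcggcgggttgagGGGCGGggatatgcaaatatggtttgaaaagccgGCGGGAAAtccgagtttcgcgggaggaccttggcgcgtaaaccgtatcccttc
The E2F motif was found before *E2F3* only (bases 53 to 46 upstream of the start). The GC box had 2 matches before each of *CDKN2B* and *MTAP*, 1 before the INK4A start and 1 before *E2F3*, and 0 before the ARF start. No matches overlapped. The AP-2 motif GCCNNNGGC, a palindrome, was searched as well and did not occur in these 5 windows. Over all 35114 promoter windows of this length 19.8% held the AP-2 motif, 2.8% the E2F motif and 42.6% the GC box. A match describes letters and no binding. The deposited table holds 1 value per gene, so RNA from the INK4A and ARF starts cannot be told apart.

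The 9p21 genes were read in HT-1376 and were at or near 0 in RT-112 and CAL-29. *CDKN2A* (ENSG00000147889, chr9:21967752-21995301, minus strand) had 219.64 to 513.48 CPM in HT-1376 (median 356.03, n = 6), 0 to 0.26 CPM in RT-112 (n = 6) and 0 to 0.34 CPM in CAL-29 (n = 5). In reads, this was 36269 reads in HT-1376 against 6 in all RT-112 libraries and 11 in all CAL-29 libraries. The pooled level in HT-1376 was 6680.7 times that of RT-112 (95% exact interval 3069.1 to 18205.6) and 3024.4 times that of CAL-29 (1690.1 to 6059.1), intervals that cover counting error only. *CDKN2A* passed the limit of 3 reads in 1 RT-112 library, KA with 5 reads, and in 2 CAL-29 libraries, WA with 4 and WC with 6 reads, and remained under 1 CPM in all of them.

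*CDKN2B* (chr9:22002903-22009305, minus strand) had 19.12 to 29.71 CPM in HT-1376 (mean 24.1 ± 3.91, SD, n = 6). It had no read in any RT-112 library and 2 reads in CAL-29, both in WC. The level in HT-1376 was therefore at least 105.6-fold higher than in RT-112, taking the lowest HT-1376 library against 3 reads in the RT-112 library where 3 reads weigh most, and the ratio to CAL-29 was 1081.5 (299.0 to 8935.3). *MTAP* (chr9:21802636-21937651, plus strand) had 5.39 to 13.16 CPM in HT-1376 (mean 10.6 ± 3.54, n = 6) and no read in the 6 RT-112 or the 5 CAL-29 libraries, which gives at least 29.8-fold and 31.9-fold higher levels on the same basis. Within HT-1376 the 3 genes differed in level, with *CDKN2A* far above *CDKN2B* and *CDKN2B* above *MTAP* in each of the 6 libraries. *MTAP* was lowest in WK (5.39 CPM) and WC (6.74 CPM), and the other 4 libraries held 12.04 to 13.16 CPM.

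HT-1376 did not overlap RT-112 or CAL-29 for any of these genes. In limma the difference from HT-1376 passed for *CDKN2A* (adjusted p = 4.21e-12 against RT-112 and 8.5e-12 against CAL-29). It also passed for *CDKN2B* (2.76e-11 and 7.13e-11) and *MTAP* (2.57e-09 and 7.72e-09). These genes passed the filter only through HT-1376 and the library labelled CAL-29 KC, with all other libraries at or near 0. Their calls were thus largely set in advance, and the p-values add no support beyond the reads. RT-112 and CAL-29 could not be ordered, as both lay at the limit. Among 8039 genes with at least 5 CPM in every HT-1376 library, 1.33% had at most 3 reads in each RT-112 library, 0.721% in each CAL-29 library and 0.535% in both lines. *CDKN2B* and *MTAP* belong to the 43 genes of the last count, and *CDKN2A* does not because of the 3 libraries with 4 to 6 reads.

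**Figure D1:**
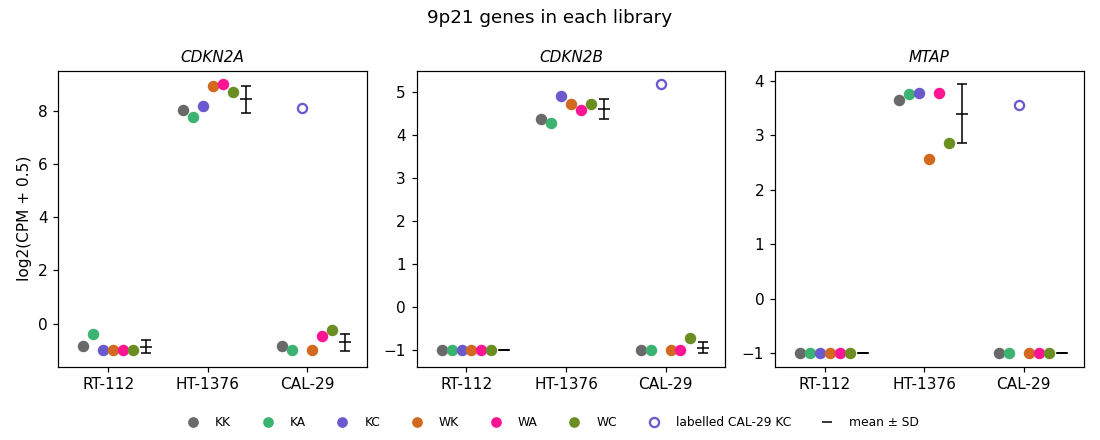
Levels of the 9p21 genes as log2(CPM + 0.5) in each library by cell line, colored by variant, with the mean ± SD of a line beside its points. HT-1376 libraries and the library labelled CAL-29 KC (open circle) lie well above the RT-112 and CAL-29 libraries, where the 3 genes are at most 0.34 CPM.

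The library labelled CAL-29 KC did not share the 9p21 pattern of CAL-29. It held 273.04 CPM of *CDKN2A* (4580 reads), 35.89 CPM of *CDKN2B* (602 reads) and 11.15 CPM of *MTAP* (187 reads), against at most 0.34, 0.11 and 0 CPM in the other 5 CAL-29 libraries. Its *CDKN2A*, *MTAP*, *CDK4* (156.19 CPM), *CDK6* (2.92), *RB1* (4.05) and *E2F3* (51.51) were within the range of the HT-1376 libraries. Its *CDKN2B* was above that range, and its *CCND1* (23.19 CPM) and *CCND3* (36.6 CPM) were below it. Of the 10 members, *CCND3* and *CCND2* (0 CPM) alone were within the range of the other CAL-29 libraries.

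Neighboring genes were read next to show how far the absence of RNA extended. Within 5 Mb on either side of *CDKN2A* 25 genes had a row, and 19 of these entered the tests. *MIR31HG*, the host RNA of miR-31, had 4.31 to 14.46 CPM in HT-1376 and no read in RT-112 or CAL-29. *CDKN2B-AS1*, an antisense RNA that overlaps *CDKN2A* and *CDKN2B*, had 2.13 to 3.29 CPM in HT-1376 and also no read in either line, and *DMRTA1* had at most 0.32 CPM in HT-1376 and none in the others. Strand use in the authors' counting is not given in the sources used here, so part of the reads of overlapping genes may be shared. In chromosome order, the 6 rows from *MIR31HG* to *DMRTA1* were thus at 0 or within a few reads of it in both lines. *DMRTA1* had 3 reads or fewer in 5 of the 6 HT-1376 libraries as well, so it does not show where the absence ended.

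Genes on either side were read in RT-112 and CAL-29. On the telomeric side *KLHL9* had 7.93 to 23.73 CPM in CAL-29, 4.68 to 7.15 in RT-112 and 3.9 to 6.31 in HT-1376. On the centromeric side *ELAVL2*, a neuronal RNA-binding protein, had 1.42 to 2.12 CPM in RT-112 and 1.16 to 5.36 in CAL-29 while HT-1376 had at most 0.26 and 3 reads or fewer in 5 of 6 libraries, and further on *TUSC1* and *CAAP1* were at or above 4.28 CPM in every library of these lines. RT-112 had no or few reads of further genes that were read in CAL-29. *HACD4* (0 against 4.92 to 11.58 CPM) and *CNTLN* (0 against 2.15 to 4.37 CPM) had no read in RT-112, and *PLIN2*, which coats lipid droplets, had at most 0.12 CPM against 8.83 to 37.99 CPM in CAL-29. These genes were not adjacent, since *RRAGA*, *HAUS6*, *DENND4C*, *RPS6* and *FOCAD* between them were read in every RT-112 library. Of the 9 genes of the region with at least 5 CPM in every HT-1376 library, 3 (*PLIN2*, *MTAP* and *CDKN2B*) had at most 3 reads in each RT-112 library and 2 (*MTAP* and *CDKN2B*) in each CAL-29 library. Whether DNA of the region was lost was not measured.

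**Figure D2:**
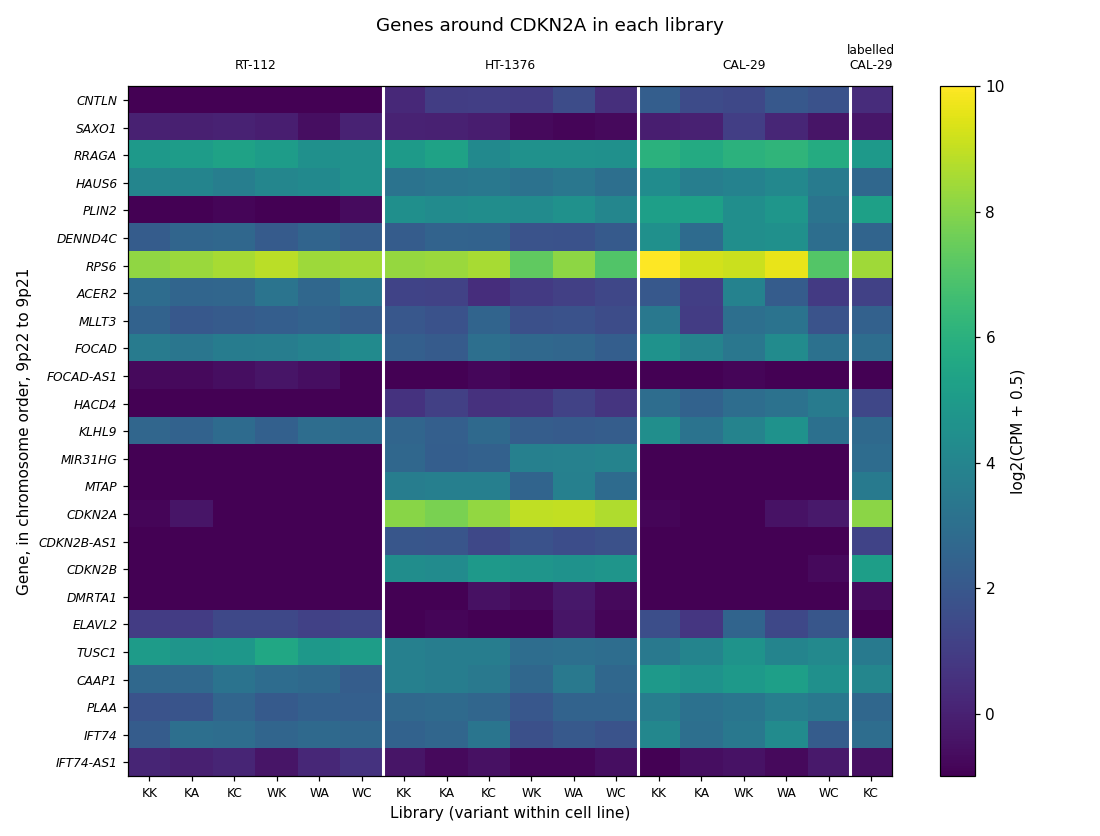
Heat map of log2(CPM + 0.5) for the 25 genes within 5 Mb of *CDKN2A*, one row per gene in chromosome order and one column per library, with the library labelled CAL-29 KC at the right. In RT-112 and CAL-29 dark cells run from *MIR31HG* to *DMRTA1*, while HT-1376 and the library labelled CAL-29 KC show signal from *MIR31HG* to *CDKN2B*.

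Differences between lines in the remaining members depend on the scaling, and both scalings are therefore given. In the deposited CPM the median log2 difference over all genes was -0.43 for RT-112 minus HT-1376, -0.84 for RT-112 minus CAL-29, and -0.47 for HT-1376 minus CAL-29. TMM scaling, which sets libraries to a common level over most genes, reduced these medians to -0.09, -0.14 and -0.10. In the CPM, 61.9% of 13022 genes passed between RT-112 and HT-1376 (19.2% higher and 42.7% lower in RT-112), 71.5% between RT-112 and CAL-29 (15.3% higher and 56.2% lower in RT-112) and 61.0% between HT-1376 and CAL-29 (17.6% higher and 43.4% lower in HT-1376). After TMM scaling it was 59.0%, 69.3% and 56.9%. Of the genes called, the share that was higher in the line named first went from 31.0% to 47.8%, from 21.4% to 45.6% and from 28.9% to 47.0%. The numbers of members called were 6, 5 and 9 of 9 in the CPM and 8, 5 and 8 after TMM scaling, and at this background such counts alone do not set the members apart.

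*CDK4* was the most abundant kinase gene of the axis in every library. It had 213.08 to 245.34 CPM in RT-112 (mean 233.7 ± 12.3, SD, n = 6), 151.24 to 192.46 in HT-1376 (180.7 ± 15.2, n = 6) and 240.65 to 325.06 in CAL-29 (290.2 ± 31.5, n = 5). HT-1376 was below both other lines without overlap, and RT-112 overlapped CAL-29. *CDK4* was higher in RT-112 than in HT-1376 by 0.37 ± 0.12 (log2, SE) with adjusted p = 0.0137, and by 0.75 after TMM scaling (adjusted p = 0.00063). The difference between HT-1376 and CAL-29 (-0.66 ± 0.13, adjusted p = 5.62e-04) became -0.27 with adjusted p = 0.161 after TMM scaling. Between RT-112 and CAL-29 the sign turned, from -0.29 (adjusted p = 0.0539) to 0.47 (adjusted p = 0.0164).

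*CDK6*, the other kinase that pairs with D-type cyclins, was highest in CAL-29 under both scalings. It had 20.35 to 56.13 CPM in CAL-29 (median 27.61, n = 5), 2.84 to 7.78 in RT-112 (median 4.175, n = 6) and 0.2 to 3.58 in HT-1376 (median 1.945, n = 6). CAL-29 did not overlap the other lines, which overlapped each other. *CDK6* was lower in RT-112 (log2 difference -2.62 ± 0.41, SE, adjusted p = 6.84e-05) and in HT-1376 (-3.96 ± 0.41, adjusted p = 2.72e-06) than in CAL-29, and it was higher in RT-112 than in HT-1376 by 1.34 ± 0.38 (adjusted p = 0.00769). After TMM scaling the same 3 differences were -1.90, -3.56 and 1.67, all past the threshold. In summed *CDK4* and *CDK6* CPM, *CDK4* made up 89.3% ± 5.19 in CAL-29, 98.1% ± 0.78 in RT-112 and 99.0% ± 0.75 in HT-1376, shares that no scaling of a library changes.

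Neighbors of *CDK6* (chr7:92604921-92836573) were higher in CAL-29 as well. Within 1 Mb of *CDK6* 14 genes were tested, *CDK6* itself included, and all 14 passed as lower in RT-112 and in HT-1376 than in CAL-29, with median log2 differences of -1.97 and -1.74 against -0.84 and -0.47 over all genes. After TMM scaling 13 and 12 of them remained past the threshold in that direction. Over all genes 56.2% and 43.4% were lower in the CPM, and 4912 and 3929 of 13022 after TMM scaling. *CYP51A1*, an enzyme of cholesterol synthesis, had a median of 147.71 CPM in CAL-29, 4.92 in RT-112 and 23.58 in HT-1376. Around *CDK4* (chr12:57747727-57756013) 30 genes were tested, *CDK4* itself included. In RT-112 9 were higher and 12 lower than in HT-1376 (12 and 8 after TMM scaling) and 2 higher and 21 lower than in CAL-29 (6 and 13). In HT-1376 2 were higher and 24 lower than in CAL-29 (2 and 16), and the shares over all genes are those given above.

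The D-type cyclins differed in composition between the lines. *CCND1*, the cyclin D1 gene, had 215.98 to 516.68 CPM in CAL-29 (median 281.94, n = 5), 34.3 to 55.93 in RT-112 (median 41.125, n = 6) and 26.66 to 64.63 in HT-1376 (median 40.64, n = 6). CAL-29 lay above both other lines without overlap, and these overlapped. *CCND1* was lower in RT-112 (log2 difference -2.77 ± 0.23, adjusted p = 3.15e-07) and in HT-1376 (-2.75 ± 0.23, adjusted p = 3.58e-07) than in CAL-29, with -2.01 and -2.36 after TMM scaling. *CCND3*, the cyclin D3 gene, went the other way, with 22.31 to 49.5 CPM in CAL-29, 62.35 to 85.22 in HT-1376 and 73.24 to 99.18 in RT-112. It was higher than in CAL-29 by 1.27 ± 0.16 in RT-112 (adjusted p = 9.76e-06) and by 1.07 ± 0.16 in HT-1376 (adjusted p = 6.7e-05), and by 2.02 and 1.46 after TMM scaling. Between RT-112 and HT-1376 *CCND3* differed by 0.19 ± 0.15 (adjusted p = 0.262), which became 0.57 with adjusted p = 0.0112 after TMM scaling.

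*CCND2*, the cyclin D2 gene, was barely read. It had no read in 5 of 6 RT-112 libraries and in all 5 CAL-29 libraries, and at most 0.64 CPM (10 reads, WA) in HT-1376. *CCND1* therefore made up 34.4% ± 5.9 of the summed D-type cyclin CPM in RT-112 (SD, n = 6) and 37.7% ± 6.6 in HT-1376 (n = 6), but 89.1% ± 5.28 in CAL-29 (n = 5), while *CCND3* made up 65.6%, 62.1% and 10.9%. Within CAL-29 the share of *CCND1* ranged from 83.1% to 95.9%, above the highest share in RT-112 (41.9%) and in HT-1376 (47.0%).

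Of 6 tested genes on the telomeric side of *CCND1* on 11q13 (chr11:69641156-69654474 for *CCND1*), 4 were higher in CAL-29 than in both other lines. *LTO1*, *FADD*, *PPFIA1* and *CTTN* passed under both scalings as higher in CAL-29 than in RT-112 and HT-1376. *CTTN*, which encodes the actin regulator cortactin, had a median of 1616.24 CPM in CAL-29 against 124.83 in RT-112 and 237.52 in HT-1376, and *FADD*, a death receptor adaptor, 408.04 against 138.42 and 108.74 CPM. *ANO1* did not pass between HT-1376 and CAL-29 (adjusted p = 0.187), and *SHANK2* lost its call between RT-112 and CAL-29 after TMM scaling (adjusted p = 0.749). On the other side *CPT1A*, which imports fatty acids into mitochondria, was higher in CAL-29 than in both lines under both scalings, and *TPCN2* was higher in CAL-29 than in HT-1376 under both. *MYEOV* and *GAL* had medians of 12.11 and 0.11 CPM in CAL-29 and of 105.39 and 18.72 CPM in RT-112. Of 15 genes tested within 1 Mb, *CCND1* included, 10 were lower and 3 higher in RT-112 than in CAL-29, and 10 were lower and 1 higher in HT-1376. After TMM scaling it was 7 and 5, and 9 and 1. Over all 13022 genes 56.2% were lower and 15.3% higher in RT-112 than in CAL-29 in the CPM, and 43.4% and 17.6% in HT-1376. With TMM scaling 4912 were lower and 4114 higher in RT-112, and 3929 and 3483 in HT-1376. At this background the RT-112 counts alone do not set the region apart, and whether the HT-1376 counts do was not tested.

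**Figure D3:**
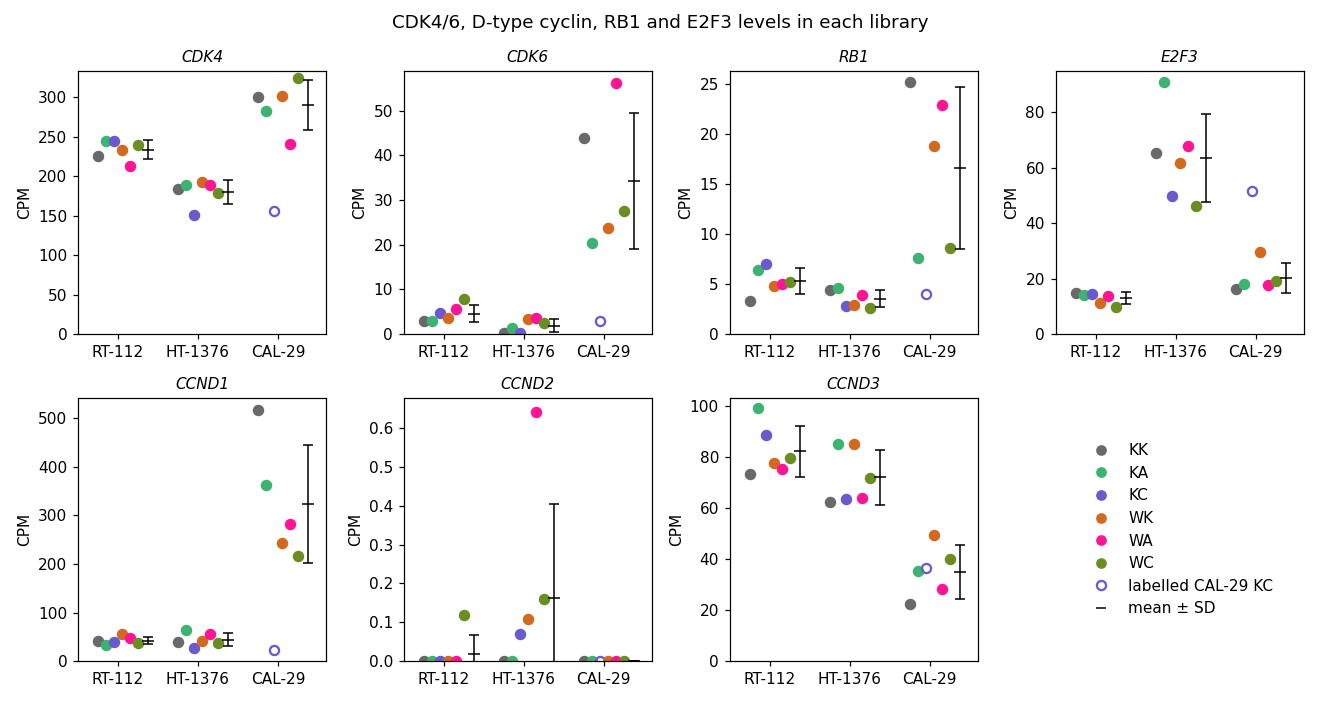
CPM of *CDK4*, *CDK6*, *RB1*, *E2F3* and the D-type cyclins in each library by cell line, colored by variant, with mean ± SD per line and the library labelled CAL-29 KC as an open circle. *CDK6* and *CCND1* are highest in the 5 CAL-29 libraries, *E2F3* in HT-1376, and *CCND2* stays at or under 0.64 CPM.

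*RB1*, which encodes the retinoblastoma protein, was read at low levels. It had 2.57 to 4.6 CPM in HT-1376 (median 3.41, n = 6), 3.32 to 7.05 in RT-112 (median 5.105, n = 6) and 7.58 to 25.17 in CAL-29 (median 18.78, n = 5). The lowest CAL-29 library was just above the highest RT-112 library, and RT-112 overlapped HT-1376. Within CAL-29 the libraries fell apart, with KA (7.58 CPM) and WC (8.6 CPM) below WK, WA and KK (18.78 to 25.17 CPM). *RB1* was lower in RT-112 (log2 difference -1.45 ± 0.33, adjusted p = 0.0012) and in HT-1376 (-1.97 ± 0.33, adjusted p = 1.81e-04) than in CAL-29, with -0.73 and -1.59 after TMM scaling (adjusted p = 0.0263 and 2.08e-04). The difference of 0.52 ± 0.30 between RT-112 and HT-1376 did not pass (adjusted p = 0.151) but became 0.86 with adjusted p = 0.00882 after TMM scaling.

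*E2F3* (chr6:20401879-20493714), an activating E2F factor, was highest in HT-1376 under both scalings. It had 46.29 to 90.84 CPM in HT-1376 (median 63.45, n = 6), 16.26 to 29.61 in CAL-29 (median 18.19, n = 5) and 9.71 to 14.85 in RT-112 (median 13.845, n = 6), and no 2 lines overlapped. *E2F3* was lower in RT-112 than in HT-1376 (log2 difference -2.23 ± 0.19, adjusted p = 2.89e-07), and higher in HT-1376 than in CAL-29 by 1.65 ± 0.20 (adjusted p = 1.43e-05). After TMM scaling these were -1.87 and 2.03. The difference of -0.58 ± 0.20 between RT-112 and CAL-29 (adjusted p = 0.0199) changed sign to 0.16 with adjusted p = 0.514 after TMM scaling, so these lines could not be ordered.

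The 5 genes with a row within 1 Mb of *E2F3* on 6p22, itself included, were all lower in RT-112 than HT-1376 under both scalings. Over all genes 42.7% were lower in this comparison in the CPM, and 4007 of 13022 after TMM scaling. *ID4*, an inhibitor of helix-loop-helix factors, had a median of 399.965 CPM in HT-1376, 124.39 in CAL-29 and 6.66 in RT-112. *CDKAL1*, a tRNA-modifying enzyme, had 22.215, 14.65 and 2.88 CPM, *MBOAT1* 24.22, 10.78 and 4.93 CPM, and the long noncoding RNA *LNC-LBCS* 13.55, 3.6 and 0.835 CPM in the same order of lines. Against CAL-29, *LNC-LBCS*, *ID4* and *E2F3* passed as higher in HT-1376, and *CDKAL1* and *MBOAT1* did not, though *MBOAT1* did after TMM scaling.

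**Figure D4:**
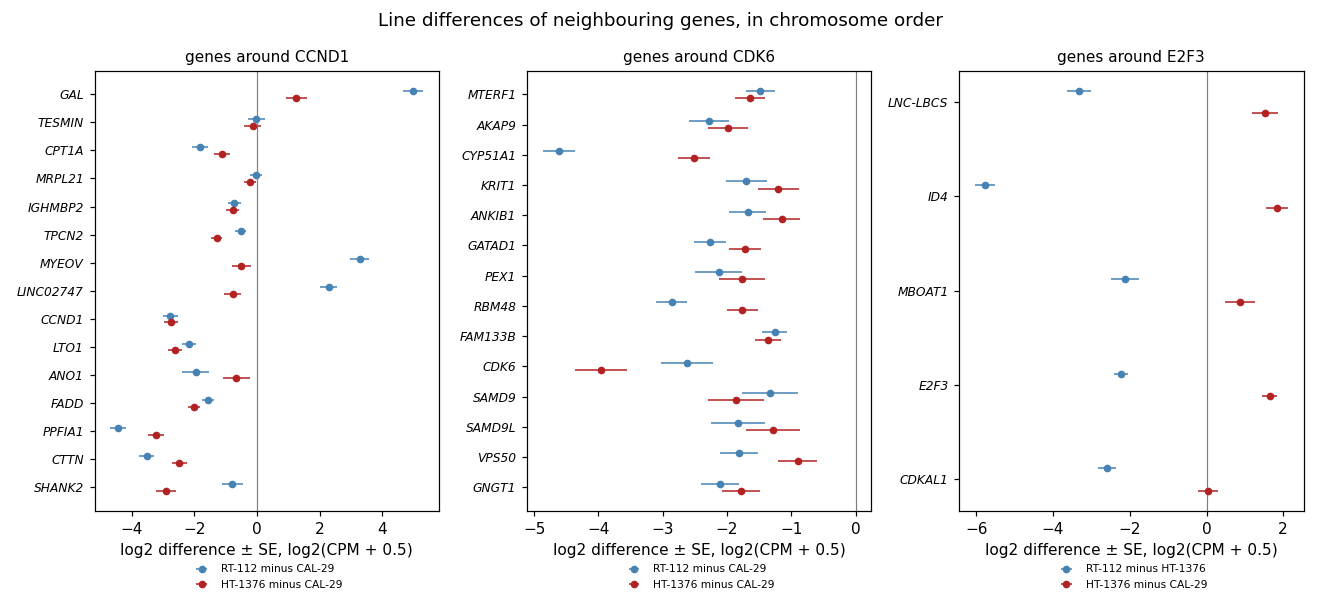
Differences between lines on the log2(CPM + 0.5) scale, with SE, for tested genes within 1 Mb of *CCND1*, *CDK6* and *E2F3*, in chromosome order. Points left of 0 in the *CCND1* and *CDK6* panels are higher in CAL-29, and in the *E2F3* panel points left of 0 for RT-112 minus HT-1376 and right of 0 for HT-1376 minus CAL-29 are higher in HT-1376.

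The remaining genes of the pathway were read as 4 lists. Among other CDK inhibitors and pocket proteins, 6 of 7 genes were tested, and *CDKN2C* and *CDKN2D*, which encode the remaining INK4 inhibitors, were higher in RT-112 and HT-1376 than in CAL-29. *CDKN2D* had a mean of 27.8 ± 10.7 CPM in RT-112, of 13.9 ± 3.61 CPM in HT-1376 and of 5.95 ± 2.19 CPM in CAL-29 (adjusted p = 5.05e-06 and 8.47e-04 against CAL-29), and *CDKN2C* 14.9 ± 1.29, 14.5 ± 6.9 and 4.67 ± 4.52 CPM (adjusted p = 0.00138 and 0.00341). *CDKN1A*, the p53 target that inhibits cyclin-dependent kinases, was lower in RT-112 (124.7 ± 46.8 CPM) than in HT-1376 (394.4 ± 168.9 CPM) and CAL-29 (555.9 ± 179.6 CPM), with adjusted p = 5.13e-04 and 7.55e-05. *CDKN1B*, *RBL1* and *RBL2* were lower in RT-112 than in CAL-29, *CDKN1B* and *RBL1* were lower in HT-1376 than in CAL-29, while after TMM scaling *CDKN1A* alone was lower against CAL-29 in RT-112 and *RBL1* alone in HT-1376.

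Of the listed genes around the cyclin E and A kinases, 4 of 5 tested were higher in HT-1376 in each comparison in the CPM. The shares over all genes were 17.6% higher than in CAL-29 and 42.7% higher than in RT-112. *CCNE1*, *CCNA2*, *CDK2* and *CDC25A* were higher in HT-1376 than in CAL-29. There *SKP2* did not pass in the CPM (adjusted p = 0.0954) but did after TMM scaling (1.06, adjusted p = 0.00951). *CCNE1*, *CCNA2*, *CDC25A* and *SKP2* were higher in HT-1376 than in RT-112. In that comparison *CDK2* did not pass (-0.20, adjusted p = 0.536, 0.17 after TMM scaling), and *CDC25A* lost its call after TMM scaling (adjusted p = 0.0922). *CCNA2*, cyclin A2, had 36.5 ± 18.4 CPM in HT-1376, 12.2 ± 3.78 in CAL-29 and 7.5 ± 0.86 in RT-112, and *CCNE1*, cyclin E1, 34.6 ± 10.3, 14.4 ± 5.88 and 14.7 ± 6.1 CPM. The median of the list was 1.17 for HT-1376 minus CAL-29 against -0.47 over all genes, and -1.26 for RT-112 minus HT-1376 against -0.43.

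The lists of E2F and DP genes and of E2F targets moved in both directions. Of 9 E2F and DP genes, *TFDP1* was higher and *E2F6* lower in HT-1376 than in CAL-29 (after TMM scaling *TFDP1*, *E2F2* and *E2F5* higher and none lower), and *E2F1* was higher in RT-112 (68.3 ± 8.22 CPM) than in HT-1376 (36.5 ± 11.7, adjusted p = 3.84e-04) and CAL-29 (44.5 ± 13.8, adjusted p = 0.00765). *E2F2* was higher in RT-112 than in CAL-29, *E2F6*, *E2F7* and *TFDP2* were lower in RT-112 than in both other lines, and *E2F5* and *TFDP1* were lower in RT-112 than in HT-1376, where *TFDP1* lost its call after TMM scaling (-0.74 to -0.37, adjusted p = 0.143). Of 20 E2F targets, 3 were higher and 9 lower in RT-112 than in HT-1376, 6 higher and 9 lower in RT-112 than in CAL-29, and 5 higher and 2 lower in HT-1376 than in CAL-29. After TMM scaling the same counts were 4 and 5, 8 and 3, and 8 and 2, so that the balance between RT-112 and CAL-29 turned. In the CPM, 19.2% and 42.7% of all genes were higher and lower in the first of these comparisons, 15.3% and 56.2% in the second and 17.6% and 43.4% in the third, and nothing particular to E2F targets is read from their counts. *CDC6*, which loads the replicative helicase, was lower in RT-112 (-2.49 ± 0.27, adjusted p = 3.21e-06) and in HT-1376 (-1.70 ± 0.27, adjusted p = 1.37e-04) than in CAL-29. *MCM5*, a subunit of this helicase, was higher in RT-112 than in HT-1376 (1.02 ± 0.19, adjusted p = 3.31e-04) and CAL-29 (1.15 ± 0.20, adjusted p = 1.64e-04).

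The study's own comparisons set each variant against KK over the 3 lines. In the comparisons of WK, WA, WC, KA and KC with KK no member passed, where limma called 0 of 13022 genes (0%) in each, and no member had an unadjusted p under 0.05. Over all genes the unadjusted p was under 0.05 for 38, 37, 84, 7 and 11 genes, edgeR called 0 genes in each, and DESeq2 called 3, 3, 9, 2 and 4. With the line as a block, which pairs the variants, these were 506, 209, 1399, 63 and 550 genes, limma again called 0 in each, and edgeR called 5 genes in KC/KK, no member among them, and 0 in the others. In KC/KK the largest log2FC among members was that of *CDKN2A* (2.98, adjusted p = 1), followed by *CDKN2B* (2.24), *CCND1* (-1.70) and *MTAP* (1.55), values that include the library labelled CAL-29 KC and, for the 9p21 genes, depend on the pseudocount. With the line as a block and without this library they were -0.03, 0.26, -0.61 and 0.11, and no member passed.

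Effects of WWOX, AP-2α and AP-2γ over the lines were also estimated in 17 libraries with terms for the line, with the WA libraries counted as AP-2α by label. None of the 9 members passed, in a fit that called 0 genes (0%) for each effect, while 1598, 199 and 343 genes had an unadjusted p under 0.05 and edgeR called 16, 1 and 2 genes and DESeq2 225, 1 and 12. *CDK6* was the single member with an unadjusted p under 0.05 (WWOX effect 0.91 ± 0.31 on the log2 scale, adjusted p = 0.317). For *CDKN2A*, *CDKN2B* and *MTAP* these estimates average HT-1376 with RT-112 and CAL-29, where the genes were at or near 0. A difference of the WWOX effect between lines passed for 3.02% of genes (393) and for no member, with *CDKN2A* at adjusted p = 0.205 and *CDK6* at 0.282. Before adjustment 2687 genes were under 0.05 in this test, and *CDKN2A* was the 1 member among them. Members short of the threshold are not shown to respond alike in the lines. DESeq2, which called 1162 genes, gave *CDK6* an adjusted p of 0.0369, and edgeR called 268 genes and no member. The pathway lists held no gene past the threshold in any of these 8 comparisons. In the WWOX effect, 4 of 20 E2F targets and 1 of 6 other inhibitors and pocket proteins had an unadjusted p under 0.05, against 1598 of 13022 genes. In the AP-2α effect 1 E2F target had, against 199 genes. Nothing particular to the lists is read from these counts. The E2F targets with the largest WWOX effect were *RRM1* (-0.88), *CDC6* (-0.80) and *POLA1* (-0.72), all lower with WWOX. The median of the list was -0.27 against -0.08 over all genes.

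Within single lines, 4 tested members had WWOX libraries that did not overlap those without WWOX. In HT-1376 *CDKN2A* had 492.95 CPM in WK, 513.48 in WA and 417.94 in WC, against 262.42 in KK, 219.64 in KA and 294.12 in KC. All 3 WWOX libraries were above all 3 others, with a mean ratio of 1.835 and ratios of 1.88, 2.34 and 1.42 between libraries with the same second transduction. The exact two-sided permutation test gave p = 0.1, the smallest that 3 against 3 libraries allow. *CDK6* in HT-1376 had 3.33, 3.58 and 2.41 CPM in WK, WA and WC against 0.2, 1.48 and 0.28 in KK, KA and KC (exact permutation p = 0.1), again with every WWOX library higher. KK and KC held 3 and 4 reads of *CDK6*, at or near the limit of 3 reads, and no HT-1376 library reached 5 CPM of it. *CCND2*, under the filter, had 0.11 to 0.64 CPM against 0 to 0.07 in the same libraries.

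In CAL-29 *CCND1* had 243.54 CPM in WK, 281.94 in WA and 215.98 in WC, against 516.68 in KK and 361.9 in KA. The WWOX libraries were lower, by a ratio of 0.56 of the means, and the exact permutation test gave p = 0.2, the smallest that 3 against 2 libraries allow. In RT-112 *E2F3* had 11.22, 13.69 and 9.71 CPM in WK, WA and WC against 14.85, 14.0 and 14.54 in KK, KA and KC (ratio 0.80, exact permutation p = 0.1). Groups without overlap were common over all genes. In RT-112 9.48% of 13022 genes were above and 11.5% below, in HT-1376 12.8% above and 22.8% below, and in CAL-29 9.0% above and 9.80% below. Of the 9 members tested, the counts in these directions were 0 and 1, 2 and 0, and 0 and 1. The 9p21 genes, at or near 0 in RT-112 and CAL-29, could hardly separate there. Median-of-ratios scaling was an alternative chosen after seeing the data. With it *E2F3* in RT-112 overlapped and *CDK4* in HT-1376 no longer did. *CDKN2A*, *CDK6* and *CCND1* were without overlap in the same directions. Under this scaling the shares above and below over all genes were 22.4% and 16.0% in HT-1376. They were 11.5% and 8.6% in RT-112, and 8.1% and 10.6% in CAL-29. The CPM of *WWOX* itself, which may miss RNA of the transgene, overlapped between these groups in HT-1376. The part of WWOX in the difference of *CDKN2A* was not tested.

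**Figure D5:**
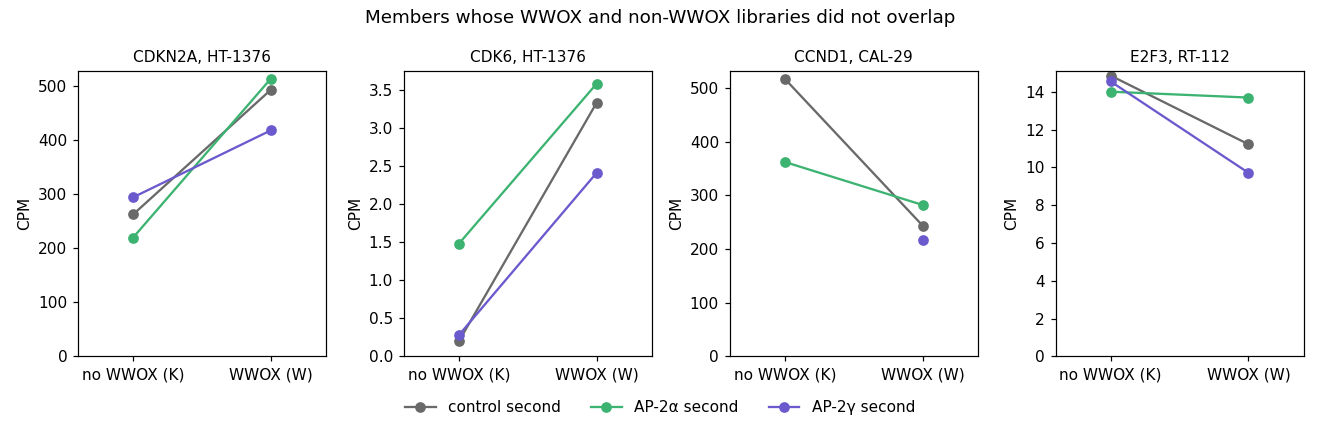
CPM of the 4 members without overlap, with libraries of the same second transduction joined by a line from no WWOX (K) to WWOX (W). *CDKN2A* and *CDK6* are higher in all 3 WWOX libraries of HT-1376, *CCND1* lower in the WWOX libraries of CAL-29 (the library labelled CAL-29 KC is left out), and *E2F3* lower in those of RT-112.

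Genes whose log2 levels followed a member most closely over 17 libraries are given as a description, since these libraries fall into 3 lines. For *CDKN2A* these were *VCX* (Pearson r = 0.999), *PAGE5* (0.998), both cancer-testis genes on chromosome X, and *CDKN2B* (0.998). For *E2F3* they were *DAG1* (0.970), *GGA2* and *MDC1*, and for *MTAP* they were *MYT1L*, *SOHLH2* and *ART4*. *VCX* averaged 502.9 CPM in HT-1376, and 0.055 and 0.166 CPM in RT-112 and CAL-29.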

How the data were processed

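CAGE-seq was done on 18 libraries, 1 per variant and cell line. The authors mapped reads to hg38 with BWA and those still without a match with HISAT2 2.0.5, and deposited 1 CPM value per gene and library (read counts scaled to library size). Values of 99.97% to 99.99% of genes were whole multiples of 1 read within 0.0055 CPM, which gave the reads used in edgeR 4.0.16 and DESeq2 1.42.0 as alternatives. Gene positions came from GENCODE 44, which held 16553 of 16575 identifiers. The annotation and strand used in the counting are not given in the sources used here.

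Genes that reached 5 CPM in 1 or more libraries were tested on log2(CPM + 0.5) with limma 3.58.1 (trend, R 4.3.3) and Benjamini-Hochberg adjustment at 0.05, a scale that understates changes of low genes. Comparisons with KK used all 18 libraries without a block. Contrasts of lines and the WWOX and AP-2 effects used 17, without the library labelled CAL-29 KC. Lines pair the variants, since the variants of a line share parental cells. Deviations of libraries of a line from the variant means correlated with r of 0.036 to 0.881 in CAL-29. In HT-1376 r was 0.588 to 0.896, and in RT-112 0.742 to 0.915. These values used all 18 libraries, so the library labelled CAL-29 KC is in the CAL-29 range and in the KC means. The floor for a gene at 0 was 3 reads, intervals were 95% exact, and single values were tested by exact permutation. Scripts were tested on simulated data. Alternatives were other scalings, pseudocounts, filters and tools, the block, and leaving out libraries.

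Members and lists were chosen with earlier results of these data known. Named genes were the members, pathway genes past a test (or the 3 largest), rows near some members, and the 3 genes most like *CDKN2A*, *MTAP* and *E2F3*. Rows near *RB1*, *CCND2* and *CCND3* were read as well and are not described. Raised neighbors are therefore not shown to be particular to the members whose neighbors are given.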

Additional observations from a re-analysis of the deposited data

Results flagged for a closer look

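Of 33 groups of 5 or 6 libraries, 7 held a library whose gap to the nearest other was large for the range of the group. The limit gives about 1 in 20 groups for normal values, a rate that does not hold here. The CAL-29 libraries entered both with and without the library labelled KC, and some groups held few reads. For 3 of them it was the library labelled CAL-29 KC among the CAL-29 libraries as labelled, with 273.04 CPM of *CDKN2A* (next 0.34), 35.89 CPM of *CDKN2B* (next 0.11) and 11.15 CPM of *MTAP* (next 0). *CDKN2A* was highest in RT-112 KA, with 0.26 CPM or 5 reads, against 0.06 CPM in the next library. *CDK4* was lowest in HT-1376 KC, with 151.24 CPM against 178.81 in the next. *CCND2* was highest in HT-1376 WA, with 0.64 CPM or 10 reads against 0.16 CPM. *E2F3* was highest in CAL-29 WK, with 29.61 CPM against 19.01 CPM in the next library.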

How the results depend on the processing

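Of 644 values recomputed under an alternative, 613 kept their direction and side of the threshold, or lay near the main value. Members called between RT-112 and CAL-29 were 3 after quantile normalization against 5, and 1 member (*CDK6*) was called in the WWOX by line interaction in DESeq2 against 0. Gene and library pairs over the limit fell from 1 to 0 in RT-112 and from 2 to 0 in CAL-29 at a limit of 1 CPM, and rose to 5 in CAL-29 with the library labelled KC. Without 1 variant, members called were 6 between RT-112 and HT-1376, 4 to 6 between RT-112 and CAL-29, and 9 between HT-1376 and CAL-29, and without 1 line 0 in each comparison with KK and each effect. Between RT-112 and CAL-29, *E2F3* turned from -0.58 to 0.16 (TMM), 0.40 (quantile), 0.14 (edgeR) and 0.24 (DESeq2), and lost its call without WK (-0.39) or WC (-0.49). *CDK4* turned from -0.29 to 0.47 (TMM), 0.46 (edgeR) and 0.55 (DESeq2). *CDKN2A* turned in KC/KK from 2.98 to -0.033 without the library labelled CAL-29 KC, with the replicate block, and in the WWOX effect from 0.32 to -0.68 over all 18 libraries and to -0.004 without HT-1376 (range -0.004 to 0.625 without 1 line). The cause was not tested. The replicate block changed no call of a member. Over a gene at 0, depth allows up to 0.158 to 0.213 CPM.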
